A study of Mus musculus with 7 samples.

Results

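The cells described here are myogenic cells from uninjured mouse muscle, obtained either after a sort for muscle stem cells or from whole digested muscle. A cell was taken as a member if 200 or more genes were detected in it, no more than 10% of its UMIs were mitochondrial, at least 3 UMIs (unique molecular identifiers, 1 per captured transcript) fell on Myf5, Myod1, Cdh15, Chrdl2, Msc and Fgfr4 together, and none on Ptprc, Pecam1, Tnmd or Pdgfra. The first 6 genes are myogenic, and the last 4 mark leukocytes, endothelium, tenocytes and fibro-adipogenic cells. In all 1882 cells of 4 libraries were members and 5500 filtered cells of those libraries were not, out of 15267 filtered cells in the 7 libraries of the series.

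Both groups came from uninjured C56BL/6J mice, spelled as the labels have it, and none carries an engineered allele or received an agent in the labels. The total muscle group (2 libraries) is wild-type hindlimb muscle of mice 3 months old that was digested with enzymes and sorted for live cells only. The homeostatic MuSC group (2 libraries) was sorted for muscle stem cells by a published method that keeps VCAM1-positive cells lacking CD31, CD45 and Sca1. The labels give no age, muscle or sex for it, and no sex for total muscle. All were made with a droplet kit that reads the 3' ends of transcripts. Nothing in the labels says that the 2 libraries of a group came from separate animals, so a p-value here measures only the spread between libraries, which may be technical. The comparison addresses how myogenic cells of uninjured muscle differ with and without the sort. The sort, the rest of the preparation and any difference between the mice, including the sex shown by transcripts below, are one with the group. They cannot be told apart.

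Satellite cells, the stem cells of skeletal muscle, lie between the fibre and its basement membrane and are mostly quiescent until injury. Pax7 marks the lineage, Myf5 and Myod1 are the myogenic factors that commit it, and Notch signals from neighbours help keep the cells out of the cell cycle. They are known to respond quickly to tissue dissociation and sorting, with transcripts of immediate early, chemokine and metallothionein genes among those that appear.

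Members made up 3.50% of the filtered cells of total muscle 1 (69 of 1969 cells, exact binomial 95% interval 2.74 to 4.41%) and 4.04% of those of total muscle 2 (98 of 2424, 3.29 to 4.91%). In homeostatic MuSC 1 they made up 57.6% (907 of 1574, 55.1 to 60.1%), and in homeostatic MuSC 2 57.1% (808 of 1415, 54.5 to 59.7%). The groups did not overlap in this share. The mean was 3.77% ± 0.381 (SD, n = 2) in total muscle and 57.4% ± 0.369 in homeostatic MuSC. With 2 libraries against 2, the two-sided exact permutation test cannot give a p below the 0.333 found here.

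The median total muscle member was read more deeply than the median homeostatic member, and the total muscle sums less deeply. Median UMIs per member were 3582 and 3515 in total muscle, against 2691 and 2928 in homeostatic MuSC, a difference of -739 UMIs (exact permutation p = 0.333, two-sided). Summed over members, the libraries held 261025 and 365716 UMIs in total muscle, against 2469940 and 2328119 in homeostatic MuSC. A single UMI is therefore worth 3.83 and 2.73 CPM (UMIs per 1000000 UMIs of the sum) in the total muscle sums and 0.405 and 0.430 in the homeostatic sums. Intervals and limits given for counts cover counting error only. Cells just inside the threshold, with exactly 3 UMIs of the 6 genes, numbered 11 and 6 in total muscle, against 151 and 123 in homeostatic MuSC, and cells just outside it, with 2 UMIs, numbered 10, 12, 210 and 159 in the same order. Among the cells that reached 3 UMIs, the condition on the other 4 genes left out 10.4% and 13.3% in total muscle, against 1.31% and 1.46% in homeostatic MuSC. Of the barcodes, 36 occurred in more than 1 library, counted over pairs of libraries, and 3 of these were members in both.

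The genes that chose the cells are given as values with no test. Myod1 was at 2634 and 3875 CPM in total muscle, against 2261 and 2213 in homeostatic MuSC. Chrdl2, a secreted BMP antagonist, was at 219 and 281 CPM against 423 and 431, and Msc, a repressor related to the myogenic factors, at 223 and 217 against 402 and 415. Myf5 was at 216, 250, 254 and 308 CPM in the same order, so its groups lay close together. Vcam1, the surface protein that the sort selects, was at 866 and 790 CPM in total muscle members and 999 and 1378 in homeostatic members. Ly6a, which encodes Sca1 and is selected against, was at 87.8 and 22.5 CPM in total muscle members and at 0.405 and 0.845, 1 and 2 UMIs, in homeostatic members. Pax7 had few UMIs in any library, and the cells are called myogenic from the rule's genes and not from Pax7.

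The homeostatic libraries and the total muscle libraries differed in their sex-linked transcripts. Xist, the RNA that coats the inactive X chromosome of female cells, was at 874 and 742 CPM in total muscle and had 1 UMI in each homeostatic library, a ratio of 1926 (counting interval 530 to 15951). Ddx3y, an RNA helicase gene of the Y chromosome, had 0 UMIs in both total muscle libraries and was at 350 and 280 CPM in homeostatic MuSC, at least 63.8-fold higher with 3 counts over the group as the floor. Eif2s3y, a Y-linked initiation factor gene, was likewise at 0 UMIs and at 76.2 and 68.9 CPM, at least 14.7-fold higher. The 2 groups did not overlap for any of these genes, as for 53.2% of all genes tested. The other cells of total muscle also held 0 UMIs of Ddx3y. Total muscle thus carried the transcripts of female cells and homeostatic MuSC those of male cells, although the labels give no sex. Sex is therefore one with the group, and its part in every difference below was not tested beyond counting chromosomes. Of 235 X-linked genes tested 3 were higher and 9 lower in homeostatic MuSC, and of 7165 autosomal genes 201 were higher and 245 lower, 6.22% in all.

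Some member barcodes also carried transcripts of other cells. Markers of fibro-adipogenic cells summed to 7206 and 2401 CPM in total muscle members and to 1411 and 1626 in homeostatic members, beside 39499 and 38906 CPM in the total muscle cells with 0 UMIs of the 6 myogenic genes. B cell markers summed to 586 and 1140 CPM in total muscle members and to 1.62 and 1.29 in homeostatic members, where 8 of the 9 markers in the files were at 0. Endothelial markers summed to 195 and 211 against 21.5 and 28.8 CPM, and mature myofibre markers to 460 and 2499 against 47.4 and 64.9. The groups did not overlap for any of these 4 lists. The other marker lists (tenocyte, mural, erythroid, epithelial, glial, macrophage or monocyte, T or NK cell and neutrophil) summed to at most 388 CPM in the members of any library. Barcodes with over 1% of their UMIs in markers of other cell types numbered 4 and 6 in total muscle, against 1 and 2 in homeostatic MuSC, 13 of 1882. They held 9.13% and 8.12% of the member UMIs of total muscle and 0.0900% and 0.443% of those of homeostatic MuSC. These are called mixed barcodes below, and lists whose counts of calls move without them are also given without them.

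Across the 7425 genes tested with edgeR's quasi-likelihood test, 216 were higher in homeostatic MuSC (2.91%) and 255 lower (3.43%) at a Benjamini-Hochberg adjusted p under 0.05, 6.34% in all. Changes of over 2-fold made up 159 of the rises and 136 of the falls. Without the mixed barcodes 263 genes were higher (3.63% of 7254 tested) and 261 lower (3.6%), 7.22% in all, and 203 of the 216 and 207 of the 255 were among them. The 2 groups did not overlap for 53.2% of all genes tested, so that groups that stand apart are common here and carry little on their own. Small changes in genes taken over all levels would mostly be missed by this test. Counts of this comparison were simulated over 7083 genes, with the changed genes drawn at random. Of genes changed 1.5-fold 4.17% were recovered, of those changed 2-fold 14.9%, 4-fold 66.7% and 8-fold 95.9%. The share recovered among abundant genes alone was not worked out. Leaving out 1 homeostatic library cut the number of rises to between 91 and 108 and of falls to between 98 and 123. Of 82 genes that the naming rule selected and the test called, 43 were called without each of the 4 libraries in turn, and for most of the others described below an adjusted p that ended the call is given. With every cell brought to 1000 UMIs 49 of the 82 were called, 23 were not and 10 were not tested. A fit that leaves 1 library in a group assumes that it varies like the other group's.

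**Figure D1:**
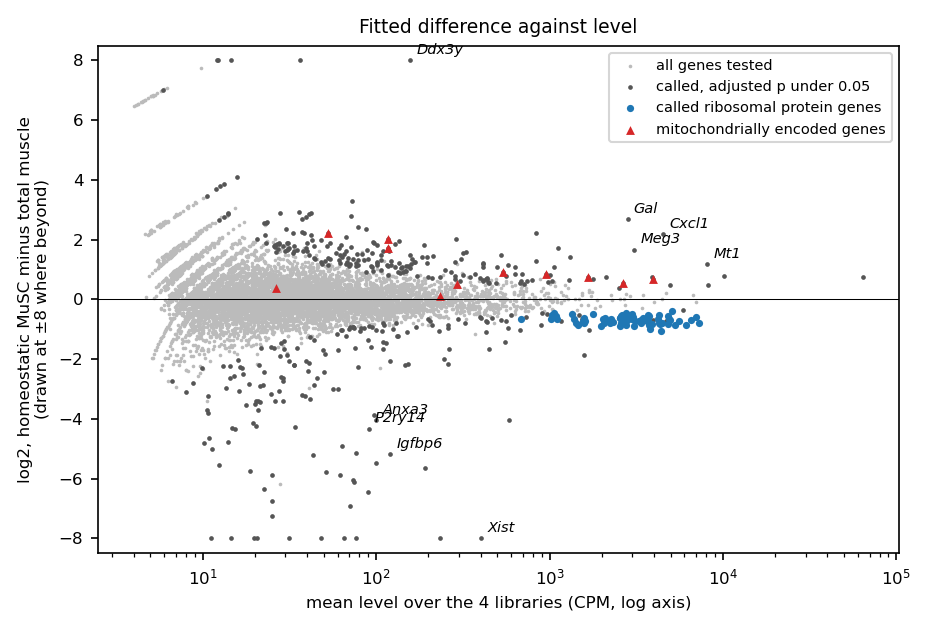
Fitted log2 difference (homeostatic MuSC minus total muscle, vertical axis) against the mean level over the 4 libraries in CPM (log axis) for all 7425 genes tested, with called genes dark, called ribosomal protein genes in blue and mitochondrially encoded genes as red triangles. The ribosomal protein genes form a narrow band below 0 at high levels, and the mitochondrially encoded genes lie above 0. Differences beyond 8 are drawn at 8.

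Cytosolic ribosomal protein genes were lower in the sorted cells. Of the 83 tested, which build the 2 subunits of the ribosome, 0 rose and 76 fell, with a median log2 difference of -0.66, where 3.43% of all genes tested fell and their median was 0.03. This list was drawn up after the values had been seen. It was also described by its share of all UMIs: ribosomal protein genes held 29.2% and 28.4% of member UMIs in total muscle, against 19.0% and 18.5% in homeostatic MuSC. The difference was seen in the typical cell as well as in the sum. The median member cell gave 29.3% and 29.2% of its UMIs to these genes in total muscle, against 18.7% and 17.9% in homeostatic MuSC. The middle 50% of cells ran from 24.5 to 33.8% and from 24.7 to 32.6% in total muscle and from 15.2 to 21.3% and 15.2 to 20.7% in homeostatic MuSC, so these ranges did not overlap between the groups. In the cells with 0 UMIs of the 6 myogenic genes, the median share was 13.8% and 13.5% in total muscle, against 6.79% and 5.76% in homeostatic MuSC. Those cells are not alike between the groups, so these medians do not compare like with like. They held fibro-adipogenic markers at 39499 and 38906 CPM in total muscle, against 4924 and 4238 in homeostatic MuSC.

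**Figure D2:**
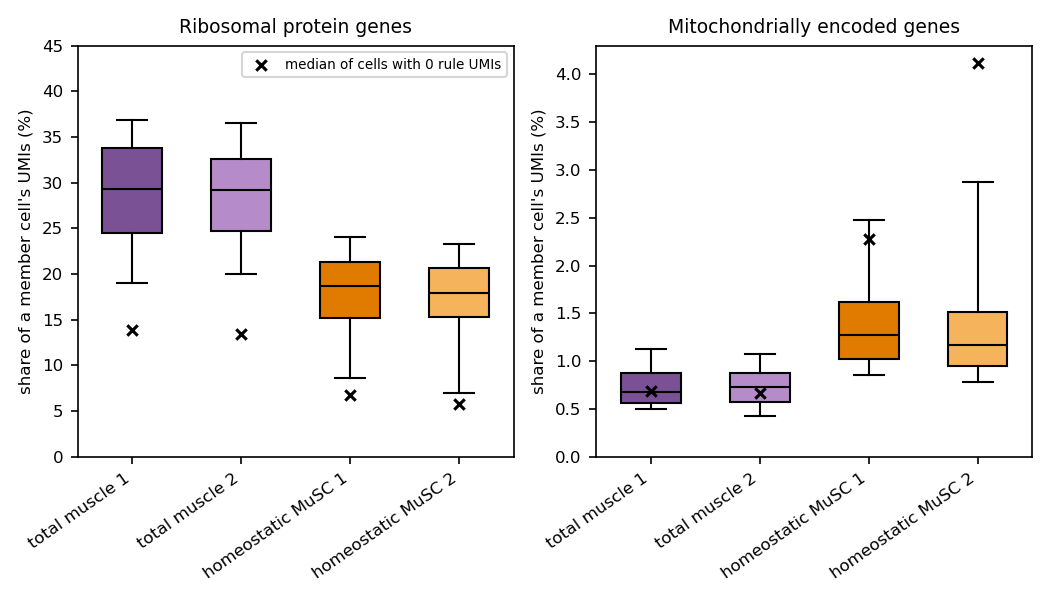
Share of each member cell's UMIs in cytosolic ribosomal protein genes (left) and mitochondrially encoded genes (right), in percent, for the 4 libraries. Boxes span the middle 50% of cells with the median as a line, whiskers reach the 10th and 90th percentiles, and crosses give the median of the cells with 0 UMIs of the 6 myogenic genes. The ribosomal boxes of total muscle lie above those of homeostatic MuSC, and the mitochondrial boxes lie below.

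Single ribosomal genes show how uniform the fall was. Rps6, a small-subunit protein that is phosphorylated downstream of mTOR, was at 4997 and 5132 CPM in total muscle, against 2633 and 2503 in homeostatic MuSC, and fell by 0.98 ± 0.09 on the log2 scale (SE; edgeR adjusted p = 6.71e-05). Rplp0, of the ribosomal stalk, was at 8049 and 7857 CPM against 4362 and 4346. It fell by 0.87 ± 0.08 (edgeR adjusted p = 6.71e-05). For both genes the libraries of each group lay close together and the groups far apart. Rps4x, the X-linked small-subunit gene, was at 5719 and 6108 CPM against 2984 and 2712 and had the deepest fall of the list, -1.05 ± 0.09 (edgeR adjusted p = 5.26e-05). The called members ranged from there to -0.40 for Rpl41. The 7 members not called included Rpl15 at -0.48 and Rpl27 at -0.41. The other 5 lay above 0, among them Rpl22l1 at 0.12. Nearly all of the list have near-identical copies elsewhere in the genome that could share their reads, so the levels of single ribosomal genes are uncertain. After the mixed barcodes were left out 78 of the 83 fell, with free RNA taken off 75 (where 2.37% of all genes fell), under DESeq2 74, and with every cell brought to 1000 UMIs 67.

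Messenger RNAs of the translation machinery are known for a pyrimidine tract at their first bases, through which mTOR controls their translation. The 30 bases around the annotated start of Rps6 (GRCm38.p6, RefSeq, chr4:86857348-86857377, minus strand) are shown because that gene stands for the group. The tract is in capitals:

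Rps6 start: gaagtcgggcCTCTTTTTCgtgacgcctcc

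A C followed by at least 4 pyrimidines at the annotated start was present in 15 of the 77 ribosomal protein promoters in the RefSeq table (19.5%) and in 823 of all 32851 (2.51%). The search needs the annotated base to be exact, and a match is a description of the sequence only.

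Elongation factors fell with the ribosomal proteins. Of 6 tested, 0 rose and 4 fell, where 3.43% of all genes fell, with a median of -0.78 (5 fell without the mixed barcodes). This list too was made after the values were seen. Eef2, which moves the ribosome along the message, was at 2442 and 2084 CPM in total muscle, against 1185 and 1054 in homeostatic MuSC and fell by 1.01 ± 0.12 (edgeR adjusted p = 0.000351). Eef1g, a subunit of the exchange factor and the called member of this list without a near-identical copy, was at 1189 and 1125 CPM against 643 and 634. It fell by 0.86 ± 0.12 (edgeR adjusted p = 0.000919). Eef1a1, which brings the charged tRNA and has 17 near-identical copies, was at 5300, 4437, 3129 and 2862 CPM and fell by 0.70 ± 0.10 (edgeR adjusted p = 0.00141), or 0.0531 without homeostatic MuSC 2. For all 3 the groups stood apart, as for 53.2% of all genes tested. Among initiation factors, a list also made after seeing the values, 9 of 49 fell and 1 rose, beside 3.43% and 2.91% of all genes. The rise was in the Y-linked Eif2s3y, and the median was -0.28 (10 fell without the mixed barcodes). Most of those that fell encode parts of the eIF3 complex, such as Eif3l at 200 and 208 CPM against 97.6 and 94.2 (-1.09 ± 0.18, edgeR adjusted p = 0.00327, and 0.0587 without homeostatic MuSC 2).

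Few genes that make ribosomes passed the test, although most lay below 0. Of 25 ribosome biogenesis and nucleolar genes 1 rose and 1 fell, beside 2.91% and 3.43% of all genes, 20 had a difference below 0, and the median was -0.19. Without the mixed barcodes 3 of the 25 fell. Npm1, a nucleolar chaperone with 5 near-identical copies, was at 1900 and 1960 CPM in total muscle, against 885 and 1275 in homeostatic MuSC (-0.84 ± 0.15, edgeR adjusted p = 0.00537). The homeostatic libraries lay below both others but apart from each other. Odc1, the first enzyme of polyamine synthesis, was at 810 and 548 CPM against 1302 and 1584 and rose by 1.10 ± 0.17 (edgeR adjusted p = 0.002, and 0.0596 without homeostatic MuSC 2). It has 11 near-identical copies.

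Transcripts encoded by the mitochondrial genome were higher in the sorted cells, and the nuclear-encoded respiratory chain showed few calls. Of 11 mitochondrially encoded genes tested 8 rose and 0 fell, with a median of 0.75, where 2.91% of all genes rose. The rule for members capped the mitochondrial share at 10%, so these genes also took part in choosing the cells. Near-identical copies exist for 6 of the 11. With copied genes left out 3 of 5 rose, with a median of 0.53, where 155 of all 6188 genes rose. mt-Co1 was not tested there. They made up 0.732% and 0.828% of member UMIs in total muscle, against 1.36% and 1.27% in homeostatic MuSC. mt-Cytb, the cytochrome of complex III, was at 2841 and 3203 CPM in total muscle, against 5034 and 4667 in homeostatic MuSC, a rise of 0.68 ± 0.09 (edgeR adjusted p = 0.00095). mt-Co1, the catalytic subunit of cytochrome oxidase, was at 339, 411, 712 and 699 CPM and rose by 0.90 ± 0.14 (edgeR adjusted p = 0.0023). In both the 2 homeostatic libraries were the higher ones and no value overlapped, as for 53.2% of all genes tested. Of the 74 nuclear genes of oxidative phosphorylation 2 rose (Ndufb4 and Ndufb9) and 1 fell (Uqcrh), and their median was -0.09. None of these 3 calls held without homeostatic MuSC 1 (adjusted p 0.158, 0.158 and 0.107 in that order).

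Mitochondrial and nuclear-retained RNA are often read as signs of RNA quality in droplet data, and 2 nuclear RNAs are given here, chosen after their values were seen. Malat1, a nuclear long non-coding RNA, was at 46776 and 48974 CPM in total muscle members and 81679 and 77997 in homeostatic members, a rise of 0.74 ± 0.05 (edgeR adjusted p = 5.35e-06). Neat1, the scaffold of paraspeckles, was at 407 and 312 CPM against 829 and 746 and rose by 1.14 ± 0.16 (edgeR adjusted p = 0.000919). Both RNAs separate the groups without overlap, as do 53.2% of all genes tested. In the cells with 0 UMIs of the 6 genes Malat1 was higher still in the sorted libraries, at 144002 and 171660 CPM. Ribosomal, mitochondrial and nuclear RNA and the depth per cell thus moved together with the group, and the part of RNA quality in the other results was not tested.

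Targets of NF-kappaB, the factor that drives inflammatory genes, were higher in the sorted cells where they passed the test. Of 21 genes of the list tested 6 rose (Cxcl1, Cxcl2, Nfkb1, Nfkbiz, Birc3 and Nfkbia) and 0 fell, with a median of 0.63, beside 2.91% of all genes rising. When the mixed barcodes were left out 8 of 21 rose. Cxcl1 encodes a chemokine that attracts neutrophils and lies on chr5:90891241-90893115. It was at 2131 and 1125 CPM in total muscle, against 5656 and 9076 in homeostatic MuSC, and rose by 2.19 ± 0.26 (4.56-fold, edgeR adjusted p = 0.0004). The lowest homeostatic library lay above the highest total muscle library, although the spread within each group was wide. Groups stood apart for 53.2% of all genes tested.

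The rise of Cxcl1 was also a matter of how many cells held it. With cells brought to 1000 UMIs, 46.4% and 31.6% of total muscle members and 77.5% and 83.5% of homeostatic members held a UMI. Without that step the shares were 62.3%, 52.0%, 90.2% and 93.7%, and 62 and 70 homeostatic members fell short of 1000 UMIs and were left out of the first. The 5 richest cells held 52.6% and 46.8% of all Cxcl1 UMIs among total muscle members, but 6.70% and 6.55% among the far more numerous homeostatic members. Cxcl1 was also found outside the members: cells with 0 UMIs of the 6 genes held it at 3313 and 3665 CPM in total muscle, above the members there, and at 7026 and 7073 in homeostatic MuSC.

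Cxcl2, a sister chemokine gene next to Cxcl1 at chr5:90903871-90905938, was at 535 and 512 CPM in total muscle, against 1016 and 2432 in homeostatic MuSC. It rose by 1.72 ± 0.31 (edgeR adjusted p = 0.00482), or by 0.996 without homeostatic MuSC 2, and the call ended when 2 UMIs of the 6 genes were enough for a cell to count (adjusted p = 0.231). Nfkb1, which encodes the p50 subunit, was at 335 and 307 CPM against 682 and 674 (1.08 ± 0.14, edgeR adjusted p = 0.000656). For Nfkb1 the libraries of each group lay close together. Nfkbiz, an inducible co-regulator, was at 47.9 and 39.4 CPM against 132 and 115 (1.52 ± 0.27, edgeR adjusted p = 0.00412). Birc3, an inhibitor of apoptosis induced by TNF, was at 27.9, 19.7, 93.6 and 67.6 CPM and rose by 1.80 ± 0.37 (edgeR adjusted p = 0.0114, and 0.0732 without homeostatic MuSC 1). Nfkbia, the inhibitor that NF-kappaB itself induces, was at 662 and 509 CPM against 860 and 942 (edgeR adjusted p = 0.0249), and its call ended without total muscle 2 (0.12) or either homeostatic library (0.0726 and 0.151). The other chemokines and cytokines tested in the list were not called. Ccl2 and Il6 overlapped between the groups: Ccl2, which recruits monocytes, was at 579 and 149 CPM against 422 and 680 (edgeR adjusted p = 0.414). Il6 was at 63.9, 5.62, 21.9 and 25.4 CPM in the same order.

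The 2 chemokine genes share a sequence before their start. The last 130 bases before the annotated starts (RefSeq, GRCm38.p6, plus strand) are shown with the NF-kappaB site searched for, which is the same 10 bases in both, in capitals; Cxcl1 is chr5:90891115-90891244 and Cxcl2 is chr5:90903769-90903898:

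Cxcl1: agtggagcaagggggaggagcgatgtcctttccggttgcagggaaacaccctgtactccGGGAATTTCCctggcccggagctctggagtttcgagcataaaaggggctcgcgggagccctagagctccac

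Cxcl2: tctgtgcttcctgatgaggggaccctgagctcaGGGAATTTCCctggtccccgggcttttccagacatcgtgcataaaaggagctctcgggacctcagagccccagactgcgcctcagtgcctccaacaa

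The site begins 71 bases before the start in Cxcl1 and 97 before it in Cxcl2. It was found, on either strand, in 29 of 32851 mouse promoters of 300 bases (0.0883%), and it was searched for after the expression values were known.

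Genes of the metal and oxidative response gave 2 rises and 1 fall among 18 tested, beside 2.91% and 3.43% of all genes, with a median of 0.11. Mt1 and Mt2, the metallothioneins that bind zinc and are induced by metals and glucocorticoids, were the 2 that rose. Mt1 was at 4953 and 4904 CPM in total muscle, against 12901 and 9610 in homeostatic MuSC, a rise of 1.19 ± 0.12 (edgeR adjusted p = 0.000127). Mt2 was at 7016 and 7817 CPM against 13163 and 12451 and rose by 0.79 ± 0.08 (edgeR adjusted p = 0.000136). They were among the most abundant transcripts of the members and did not overlap between the groups, as for 53.2% of all genes tested. The cells with 0 UMIs of the 6 genes are not alike between the groups. Mt1 was at 10512 and 10959 CPM in those of total muscle, against 10917 and 8518 in those of homeostatic MuSC. Ftl1, the ferritin light chain, was at 6573 and 5188 CPM against 3340 and 3757 and fell by 0.73 ± 0.11 (edgeR adjusted p = 0.002); it has 12 near-identical copies.

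**Figure D3:**
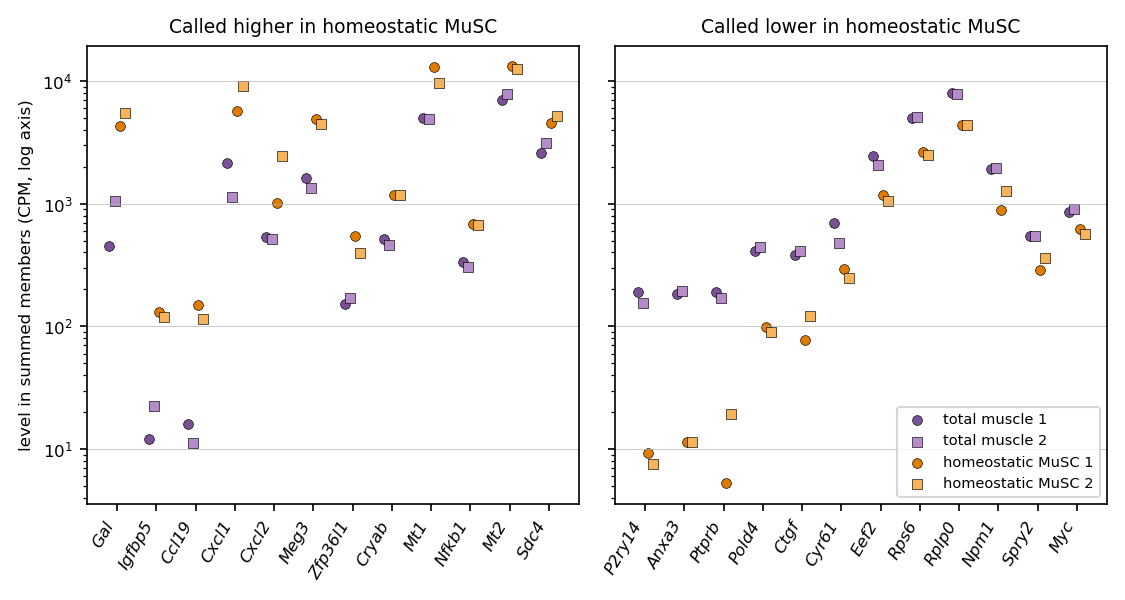
Level of 12 genes called higher (left) and 12 called lower (right) in homeostatic MuSC, in CPM of the summed members on a log axis, with 1 point per library (purple, total muscle; orange, homeostatic MuSC). For each gene both homeostatic points lie on the same side of both total muscle points, as for 53.2% of all genes tested. Gal, for example, is at 4303 and 5466 CPM in homeostatic MuSC against 451 and 1052 in total muscle.

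The immediate early genes, which are transcribed within minutes of a stimulus, moved in both directions. Of 30 tested 2 rose and 2 fell, where 6.34% of all genes were called, with a median of 0.23, and 3 rose without the mixed barcodes. Zfp36l1, an RNA-binding protein that speeds the decay of AU-rich messages, was at 152 and 172 CPM in total muscle, against 550 and 398 in homeostatic MuSC (1.54 ± 0.20, edgeR adjusted p = 0.000696). Maff, a small Maf factor, was at 551 and 351 CPM against 932 and 684 (0.86 ± 0.21, edgeR adjusted p = 0.0294, and 0.231 and 0.0587 without homeostatic MuSC 1 or 2). Cyr61, a matricellular target of serum response factor and YAP, was at 694 and 481 CPM against 291 and 250 and fell by 1.10 ± 0.18 (edgeR adjusted p = 0.00274, and 0.0819 without homeostatic MuSC 2). Myc was at 858, 900, 621 and 561 CPM (-0.57 ± 0.13, edgeR adjusted p = 0.0179), a call that ended without total muscle 2 (0.0788) and without homeostatic MuSC 1 or 2 (0.0624 and 0.159). The AP-1 genes themselves were not called. Fos was at 399 and 405 CPM in total muscle, against 638 and 322 in homeostatic MuSC, and Jun at 635 and 793 against 645 and 366, so in both the homeostatic libraries spanned or met the total muscle values.

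The promoters of Zfp36l1, Cyr61, Maff and Dnaja1, called in the immediate early and heat shock lists, were searched for motifs. Those of the other called members, Myc, Cryab and Hsp90aa1, were absent from the RefSeq promoters used and were not searched. Both strands of the 300 bases around the start were searched for the serum response element, the AP-1 site (TGANTCA) and TGACGTCA (cAMP response element). GAANNTTC and TTCNNGAA, parts of heat shock elements, were included. The letters TATAAA, the core of a TATA box, were searched for as well. The 130 bases before the start of a gene that rose and of one that fell are shown, with matches in capitals (RefSeq, GRCm38.p6, minus strand, given 5' to 3' along the gene): Zfp36l1 is chr12:80113014-80113143 and Cyr61, named Ccn1 in RefSeq, is chr3:145649986-145650115.

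Zfp36l1: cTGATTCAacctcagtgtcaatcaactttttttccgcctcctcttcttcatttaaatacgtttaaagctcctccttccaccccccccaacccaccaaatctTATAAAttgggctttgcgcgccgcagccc

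Cyr61: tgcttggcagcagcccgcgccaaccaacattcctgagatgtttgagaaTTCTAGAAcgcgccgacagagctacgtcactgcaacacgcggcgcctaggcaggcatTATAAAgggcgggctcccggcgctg

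Zfp36l1 holds an AP-1 site and a TATA box, and Cyr61 a heat shock element part and a TATA box. AP-1 sites of these letters occur in 7.81% of all promoters of the table, TTCNNGAA in 8.52% and TATAAA in 13.6%, so none of them is rare. Dnaja1 holds GAANNTTC, as do 7.86% of promoters, and Maff holds none of the 6 motifs.

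Heat shock and chaperone genes gave 3 rises and 0 falls among 22, with a median of 0.32, where 2.91% of all genes rose. Cryab, a small heat shock protein that guards desmin and actin, was at 511 and 458 CPM in total muscle, against 1186 and 1167 in homeostatic MuSC, a rise of 1.28 ± 0.13 (edgeR adjusted p = 0.000136). Dnaja1, a co-chaperone of HSP70, was at 611 and 627 CPM against 1062 and 866 (0.64 ± 0.14, edgeR adjusted p = 0.0159, and 0.141 without homeostatic MuSC 1). Hsp90aa1, the inducible HSP90, was at 2275, 2064, 3018 and 2701 CPM (0.40 ± 0.10, edgeR adjusted p = 0.0402), and this call was lost without total muscle 2 (0.0942) and without either homeostatic library (0.206 and 0.06). The most inducible gene of the list, Hspa1a, differed most between the sorted libraries: it was at 1868 and 2368 CPM in total muscle, against 2898 and 734 in homeostatic MuSC (edgeR adjusted p = 0.821). In the unfolded protein and integrated stress response 0 of 18 genes were called, where 6.34% of all genes were. Hspa5, the main chaperone of the endoplasmic reticulum, was at 6768 and 7612 CPM against 7484 and 6230, and Hsp90b1 at 1066 and 1077 against 1284 and 1240.

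**Figure D4:**
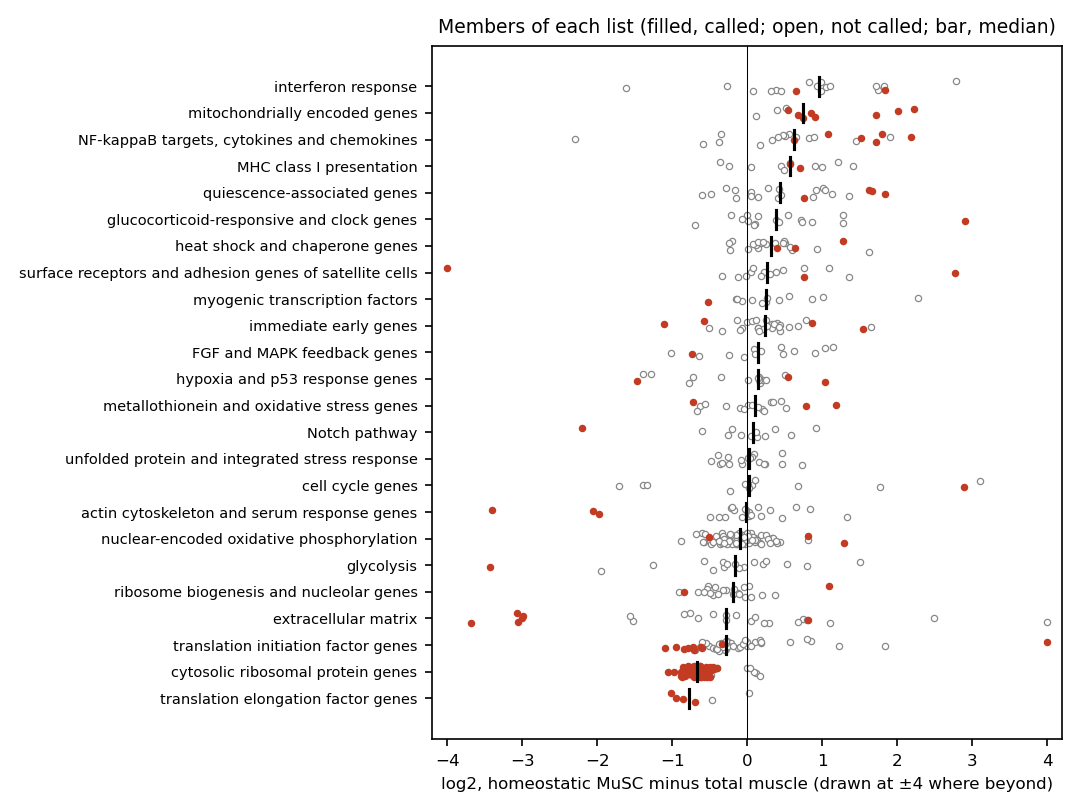
Fitted log2 difference (homeostatic MuSC minus total muscle) of every tested member of the gene lists, 1 list per line, with called members filled, others open and a bar at the median. Ribosomal protein genes lie below 0 almost as a block, mitochondrially encoded genes above it, and most other lists straddle 0 with single called members. Differences beyond 4 are drawn at 4.

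Genes associated with quiescence gave 4 rises and 0 falls among 22, with a median of 0.43, beside 2.91% of all genes rising, and 5 rises without the mixed barcodes. Meg3, a long non-coding RNA of the imprinted Dlk1 region (chr12:109541001-109571726), was at 1612 and 1347 CPM in total muscle, against 4910 and 4473 in homeostatic MuSC, and rose by 1.67 ± 0.11 (3.18-fold, edgeR adjusted p = 5.21e-06). At 1000 UMIs per cell it was detected in 66.7% and 53.1% of total muscle members and 91.0% and 90.7% of homeostatic members, and unthinned in 79.7%, 71.4%, 96.1% and 96.3%. In the cells of total muscle with 0 UMIs of the 6 genes the share was 20.2% and 20.8% at 1000 UMIs. Mirg, the microRNA host transcript of the same region, was at 16.0, 8.44, 42.9 and 40.6 CPM (1.84 ± 0.45, edgeR adjusted p = 0.0315), a call that ended without total muscle 2 (0.243) or either homeostatic library (0.178 and 0.124). Sdc4, a heparan sulphate proteoglycan of the satellite cell surface, was at 2586 and 3149 CPM against 4553 and 5209 (0.77 ± 0.11, edgeR adjusted p = 0.00129). Dag1, the dystroglycan that anchors the cell to laminin, was at 67.8 and 42.2 CPM against 202 and 128 (1.63 ± 0.33, edgeR adjusted p = 0.01, and 0.0674 without homeostatic MuSC 1). Calcr, the calcitonin receptor of quiescent satellite cells, was at 11.97, 11.2, 36.1 and 23.7 CPM and was not called (edgeR adjusted p = 0.166). The groups stood apart for all 5 of these genes, as for 53.2% of all genes tested.

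Among myogenic transcription factors outside the rule 1 of 13 passed the test. It fell and 0 rose, where 6.34% of all genes were called; the median was 0.25, and most were at low levels. Pax7 was at 16.0 and 16.9 CPM in total muscle, from 4 and 6 UMIs, and 41.3 and 25.4 in homeostatic MuSC, from 102 and 60 UMIs; the difference of 1.01 ± 0.49 was not called (edgeR adjusted p = 0.274). Pax3, its paralogue, was at 7.98, 8.44, 8.10 and 7.61 CPM. Eya1, a transcriptional co-activator of muscle precursors, was at 19.95 and 14.1 CPM against 19.9 and 29.2. The values of Pax3 and Eya1 overlapped between the groups. Lbx1, a homeobox factor of limb muscle precursors, was at 0, 5.62, 15.8 and 16.9 CPM (edgeR adjusted p = 0.124). Mef2a was at 67.8, 67.5, 53.9 and 68.0 CPM, Mef2d at 39.9, 33.7, 53.1 and 33.4, and Tcf12, a partner of the myogenic factors, at 55.9, 28.1, 49.0 and 58.7.

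The inhibitors of the myogenic factors were led by Id3. It was at 1864 and 1651 CPM in total muscle, against 1337 and 1101 in homeostatic MuSC and was the 1 called gene of the list, with a fall of 0.53 ± 0.12 (edgeR adjusted p = 0.0273, 0.22 without homeostatic MuSC 2 and 0.067 under DESeq2). Id1 was at 275 and 267 CPM against 259 and 233, and Id2 at 132 and 121 against 150 and 138. Neither was called. Eya4 and Tcf3 had at most 18.2 CPM in any library.

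Signalling lists gave 1 called gene each, a share close to the 6.34% of all genes called. In the Notch pathway 1 of 12 genes fell, Hes1, the repressor that Notch induces, at 120 and 363 CPM in total muscle, against 87.5 and 20.7 in homeostatic MuSC (-2.21 ± 0.55, edgeR adjusted p = 0.035). A single cell held 90 of the 129 Hes1 UMIs of total muscle 2; without that library the difference was -1.11, without homeostatic MuSC 2 the adjusted p was 0.178, and under DESeq2 it was 0.446. Among 14 FGF and MAPK feedback genes Spry2, an inhibitor of receptor tyrosine kinase signalling, fell: it was at 543 and 546 CPM against 290 and 362 (-0.74 ± 0.15, edgeR adjusted p = 0.0127, and 0.129 without homeostatic MuSC 1). Spry1, its relative in quiescent cells, was at 71.8, 22.5, 87.1 and 91.7 CPM and was not called. Among 14 cell cycle genes Ccnd1, the cyclin that starts G1 progression, rose, with 3.99 and 8.44 CPM against 57.5 and 41.8 (2.90 ± 0.54, edgeR adjusted p = 0.00614, and 0.0702 without homeostatic MuSC 1). The difference was 3.65 without total muscle 2, and 1.54 and not called at 1000 UMIs per cell (adjusted p = 0.392). Its total muscle levels rest on 1 and 3 UMIs.

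Other lists of response genes gave at most 3 calls each, where 2.91% of all genes rose and 3.43% fell. Of 18 interferon response genes 2 rose and 0 fell, 16 had a difference above 0, and the median was 0.96. Without the mixed barcodes 3 of 17 rose. Gbp2, an interferon-induced GTPase, was at 55.9 and 56.2 CPM in total muscle, against 153 and 251 in homeostatic MuSC (1.85 ± 0.31, edgeR adjusted p = 0.00342). Ifitm3, a membrane protein that restricts viral entry, was at 1046, 979, 1433 and 1753 CPM (0.66 ± 0.13, edgeR adjusted p = 0.00784, and 0.0819 without homeostatic MuSC 2). Of 12 genes of MHC class I presentation 2 rose, H2-K1 and H2-D1, which have 4 near-identical copies each, and 3 rose with the mixed barcodes left out. H2-K1 was lost without total muscle 2 (adjusted p = 0.157) and without homeostatic MuSC 1 or 2 (0.0868 and 0.13). H2-D1 was at 766 and 818 CPM against 1120 and 1233 (0.57 ± 0.12, edgeR adjusted p = 0.0137, and 0.0989 without homeostatic MuSC 2), while B2m, the light chain, was at 902, 678, 570 and 762. Of 16 hypoxia and p53 response genes 2 rose and 1 fell, and all 3 belong to the Gadd45 family of stress sensors. Gadd45b was at 120 and 87.2 CPM against 228 and 191 (1.05 ± 0.22, edgeR adjusted p = 0.0129, 0.074 without total muscle 2 and 0.11 and 0.0512 without homeostatic MuSC 1 or 2), and Gadd45g at 223 and 112 against 65.6 and 52.0 (-1.46 ± 0.29, edgeR adjusted p = 0.00956, and 0.14 without homeostatic MuSC 2). The 2 paralogues differed in sign. Gadd45a, at 351 and 371 CPM against 517 and 544 (edgeR adjusted p = 0.0392), was not called without any 1 of the libraries, with an adjusted p of 0.108, 0.0612, 0.106 and 0.137. Among 17 glucocorticoid-responsive and clock genes 1 rose, Zbtb16, from 0 and 2 UMIs in total muscle (ratio 7.65, counting interval 2.07 to 63.9). Its call (edgeR adjusted p = 0.0487) ended under DESeq2 (0.209), and it was too low to be tested at 1000 UMIs per cell. Errfi1, a feedback inhibitor of the EGF receptor, was at 1832 and 1518 CPM against 2000 and 1607, and Sgk1, a kinase induced by glucocorticoids, at 662 and 503 against 497 and 498.

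The 10 largest rises under the naming rule were in the Y-linked Ddx3y and Eif2s3y and in Ccl19, C1qtnf3, Mgarp, Slc10a6, Igfbp5, Edn3, Zhx2 and Gal. Gal, which encodes the neuropeptide galanin (chr19:3409915-3414544), was at 451 and 1052 CPM in total muscle, against 4303 and 5466 in homeostatic MuSC. It rose by 2.68 ± 0.27 (6.40-fold, edgeR adjusted p = 0.000156), and by 3.47 without total muscle 2. The groups stood well apart, and so did the shares of cells: at 1000 UMIs 13.04% and 12.2% of total muscle members and 65.7% and 72.9% of homeostatic members held a Gal UMI, and unthinned 23.2%, 20.4%, 84.7% and 88.0%. In total muscle 5 cells held 76.1% and 87.7% of all Gal UMIs among members, and 10.7% and 10.9% in homeostatic MuSC. These 5 were out of 69 and 98 members in total muscle but 907 and 808 in homeostatic MuSC, so the shares are of unlike parts. In the cells with 0 UMIs of the 6 genes Gal was nearly absent from total muscle, in 0.274% and 0.181% of cells at 1000 UMIs. It was present in 59.0% and 66.7% of such cells in homeostatic MuSC. These shares cover only cells that reached 1000 UMIs, 100 of 214 and 81 of 225 in homeostatic MuSC. In total muscle all 1823 and 2208 reached it. Median UMIs over all cells outside the members were 1482 and 998 in homeostatic MuSC, against 3020 and 3169 in total muscle.

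The others were at lower levels than Gal. Ccl19, a chemokine that guides lymphocytes, was at 16.0 and 11.2 CPM in total muscle, against 148 and 114 in homeostatic MuSC (3.30 ± 0.37, edgeR adjusted p = 0.0003); it has 4 near-identical copies. Edn3, endothelin 3, was at 16.0, 5.62, 74.9 and 61.7 CPM (2.77 ± 0.46, edgeR adjusted p = 0.00286). Its difference was 3.59 without total muscle 1 and 2.12 without total muscle 2. Nppc, C-type natriuretic peptide and chosen after its values were seen, was at 144 and 89.98 CPM against 543 and 383 (2.02 ± 0.25, edgeR adjusted p = 0.000461). Igfbp5, which binds insulin-like growth factors, was at 11.97, 22.5, 132 and 120 CPM (2.79 ± 0.33, edgeR adjusted p = 0.00041). The difference was 3.41 without total muscle 2 and 1.85 when 2 UMIs of the 6 genes were enough, and with free RNA taken off, which leaves 0 UMIs in both total muscle libraries, the fitted value of 10.33 depends on the prior count and is no bound. It was higher in the other cells of total muscle, at 418 and 414 CPM. Of the remaining rises, C1qtnf3, a secreted C1q-like protein, went from 7.98 and 8.44 to 67.2 and 59.2 CPM. Mgarp, a mitochondrial protein, went from 7.98 and 11.2 to 70.9 and 78.6, Zhx2, a transcriptional repressor, from 7.98 and 11.2 to 74.1 and 55.8, and Slc10a6, a transporter of sulphated steroids, from 11.97 and 8.44 to 94.0 and 49.9. The call on Slc10a6 ended when 2 UMIs of the 6 genes were enough (adjusted p = 0.0861). In these genes the total muscle values rest on few UMIs, and the rule that named them required groups that do not overlap.

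The 10 largest falls over all members were in Xist, Igfbp6, Ifi205, Ifi204, Aspn, Ebf1, Apod, P2ry14, Anxa3 and Ptprb. The largest were taken again after the mixed barcodes had left, a choice made after the values were seen, and were then in Xist, P2ry14, Anxa3, Ptprb, Cdc42ep3, Cks2, Hes1, Pold4, Igf2 and Ctgf. P2ry14, the receptor for UDP-glucose (chr3:59113855-59153618), was at 192 and 155 CPM in total muscle, against 9.32 and 7.61 in homeostatic MuSC, a fall of 4.32 ± 0.28 (20.02-fold, edgeR adjusted p = 4.62e-06). Without the mixed barcodes the total muscle levels were 198 and 146 CPM. The cells of total muscle with 0 UMIs of the 6 genes held it at 8.21 and 7.77 CPM, below the members of both libraries. At 1000 UMIs it was found in 13.04% and 12.2% of total muscle members against 0.828% and 0.271% of homeostatic members, and unthinned in 33.3%, 26.5%, 1.76% and 1.98%.

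Anxa3, an annexin that binds membranes in the presence of calcium (chr5:96793339-96845966), was at 184 and 194 CPM in total muscle, against 11.3 and 11.4 in homeostatic MuSC. It fell by 4.05 ± 0.25 (16.5-fold, edgeR adjusted p = 3.3e-06). Ptprb, a receptor phosphatase best known from endothelium, was at 192 and 172 CPM against 5.27 and 19.4 (-3.87 ± 0.41, edgeR adjusted p = 0.000211). For Ptprb the difference was -3.19 when the first homeostatic library was left out and -5.03 when the other was. Unlike P2ry14, both genes were at least as high in the other cells of total muscle, at 279 and 269 CPM for Anxa3 and 282 and 239 for Ptprb. Without the mixed barcodes Anxa3 stood at 177 and 190 CPM in total muscle and Ptprb at 185 and 164. Pold4, the smallest subunit of DNA polymerase delta, was at 411 and 444 CPM against 99.7 and 90.01 (-2.18 ± 0.16, edgeR adjusted p = 1.47e-05), above the other cells of total muscle at 59.5 and 55.6.

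P2ry14, Anxa3 and Ptprb were spread over many total muscle members. P2ry14 was detected in 23 of 69 and 26 of 98 cells, Anxa3 in 22 and 35 and Ptprb in 36 and 45. At least 1 of the 3 was found in 75.4% and 69.4% of total muscle members and in 6.06% and 9.90% of homeostatic members. At least 2 of them were found in 24 of 69 and 31 of 98 cells against 0 of 907 and 4 of 808, and all 3 in 5 and 7 cells against 0 and 0, which allows a share of up to 0.331% and 0.371% by counting alone. These are counts in cells of unequal depth, and no test was made over cells.

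Further falls were called at lower and higher levels. Ctgf, a matricellular target of YAP, was at 379 and 408 CPM in total muscle, against 77.4 and 123 in homeostatic MuSC (-1.98 ± 0.22, edgeR adjusted p = 0.000257). Plk2, a polo-like kinase chosen after its values were seen, was at 818, 548, 186 and 243 CPM (-1.66 ± 0.20, edgeR adjusted p = 0.000442), and Cited2, a transcriptional co-regulator chosen likewise, at 798 and 1004 against 407 and 492 (-1.01 ± 0.15, edgeR adjusted p = 0.00171). Both were above the other cells of total muscle, where Plk2 was at 179 and 183 CPM and Cited2 at 123 and 117. Igf2, the imprinted growth factor, was at 47.9 and 53.4 CPM against 13.8 and 10.6 (-2.06 ± 0.37, edgeR adjusted p = 0.00482, and 0.105 and 0.127 without homeostatic MuSC 1 or 2). Cks2, a cyclin kinase subunit, and Cdc42ep3, an effector of Cdc42, fell by 2.21 and 2.71 and were likewise lost without homeostatic MuSC 1 (adjusted p = 0.0696 and 0.101) or 2 (0.0808 and 0.113). In the list of actin cytoskeleton and serum response genes 0 of 22 rose and 3 fell, beside 2.91% and 3.43% of all genes. The 3 were Ctgf, Tpm1 and Myl9, and the median of the list was -0.02. Tpm1, a tropomyosin that fibres also express, was at 116 and 270 CPM against 40.5 and 55.8 (-2.05 ± 0.32, edgeR adjusted p = 0.002), but differed by -1.24 without the mixed barcodes and by -1.23 without total muscle 2. Myl9, a myosin light chain of smooth muscle, was lost without total muscle 2 (adjusted p = 0.589) and without homeostatic MuSC 1 or 2 (0.331 and 0.279).

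Other falls were smaller without the mixed barcodes, in genes that the other cells of total muscle hold at high levels. Col1a1, Acta1 and Dcn are among the markers that define mixed barcodes, so their drop without those barcodes follows in part from that choice. Igfbp6, a binding protein of insulin-like growth factors, was at 219 and 250 CPM in total muscle members and 5.27 and 7.61 in homeostatic members (-5.18 ± 0.27, edgeR adjusted p = 1.4e-06). Without the mixed barcodes it was at 42.2 and 41.7 CPM, the difference shrank to -3.12, and the other cells of total muscle held it at 1746 and 1732 CPM. Col1a1, the main collagen of fibroblasts, was at 180 and 36.6 CPM against 11.7 and 13.5 and at 42.2 and 29.8 without the mixed barcodes. The 2 total muscle libraries lay far apart for it, and its call ended without total muscle 1 (adjusted p = 0.0561) and without either homeostatic library (0.0707 and 0.1). Ifi205, an interferon-induced gene, was at 283 and 11.2 CPM against 0.405 and 3.38 and at 21.1 and 8.93 without the mixed barcodes, where it was too low to be tested; its call also ended without homeostatic MuSC 1 (adjusted p = 0.0725) or 2 (0.0858). Acta1, the actin of fibres, was at 136 and 610 CPM against 7.70 and 7.61, and at 131 and 122 without the mixed barcodes. Dcn, the decorin of fibro-adipogenic cells, was at 1716 and 478 CPM against 26.3 and 105 (-4.04), and at 320 and 345 against 24.7 and 28.5 without the mixed barcodes (-3.73). The other cells of total muscle held it at 11612 and 11532 CPM, and its call ended with free RNA taken off (adjusted p = 0.12). Its difference ran from -2.86 without total muscle 1 to -5.32 without homeostatic MuSC 2.

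**Figure D5:**
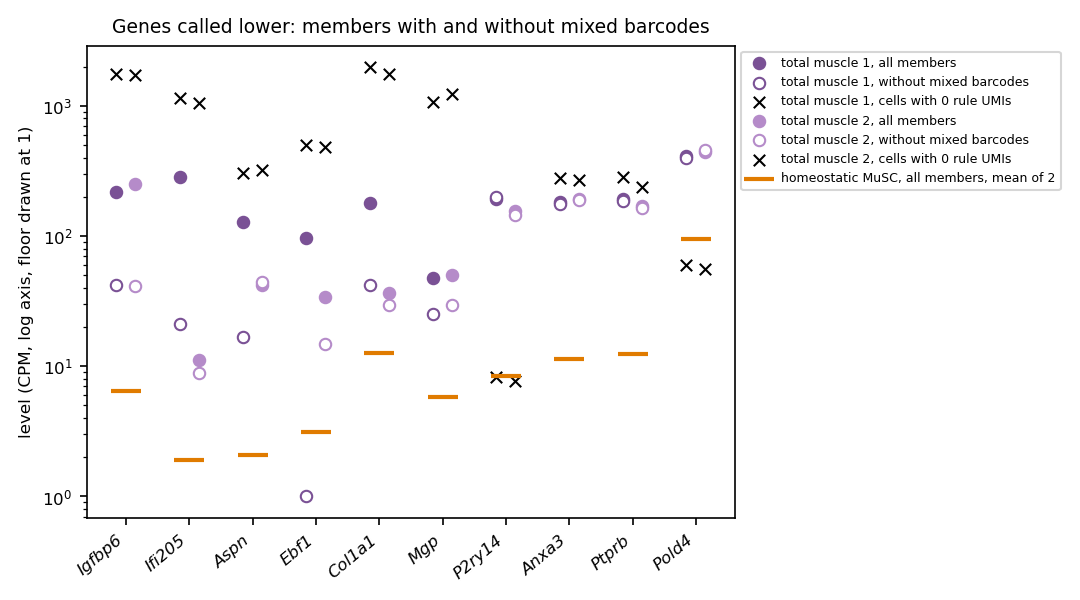
Level in CPM (log axis, 0 drawn at 1) of 10 genes called lower in homeostatic MuSC, for total muscle members with all barcodes (filled), without the mixed barcodes (open) and for the total muscle cells with 0 UMIs of the 6 myogenic genes (crosses), beside the mean of the 2 homeostatic libraries (orange bar). Igfbp6, Ifi205, Aspn, Ebf1 and Col1a1 drop in 1 or both libraries when mixed barcodes are left out. Col1a1 is among the markers that define those barcodes. P2ry14, Anxa3, Ptprb and Pold4 change little. Only the levels over all members are TMM-scaled.

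The extracellular matrix list depended on such settings. Of 25 genes 1 rose and 5 fell (Col1a1, Col1a2, Fn1, Sparcl1 and Mgp), beside 2.91% and 3.43% of all genes, with a median of -0.28. Col1a1 and Col3a1 are among the markers that define mixed barcodes. With the mixed barcodes left out 5 of 24 rose and 4 fell and the median was 0.33, and with free RNA taken off 1 of 20 rose and 0 fell and the median was 0.29, where 2.67% of all genes rose and 5.04% were called in all. At 1000 UMIs per cell 1 of 19 rose and 2 fell, and the median was 0.50. The sign of the list's median thus turned under each of these 3 settings. Of the 5 that fell, Col1a1, Fn1 and Mgp were lost without homeostatic MuSC 1 (adjusted p = 0.0707, 0.369 and 0.106). Sparc, a matrix glycoprotein that satellite cells also make, was the 1 that rose: it was at 216 and 242 CPM in total muscle, against 446 and 362 in homeostatic MuSC (0.81 ± 0.17, edgeR adjusted p = 0.0139). The other cells of total muscle held it at 2558 and 2419 CPM, its call ended without homeostatic MuSC 1 (0.11), and its difference turned to -0.28 when cells with UMIs of the 4 excluded genes were kept. Of 17 glycolysis genes 1 fell, where 3.43% of all genes fell. It was Eno3, the enolase of muscle fibres, at 7.98 and 70.3 CPM against 4.05 and 3.80. Eno3 is also among the markers that define mixed barcodes, and it was not called without them (edgeR adjusted p = 0.158). Its difference was -0.98 without total muscle 2, and its call was also lost without homeostatic MuSC 1 or 2.

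Surface receptors and adhesion genes of satellite cells, other than Vcam1, gave 2 rises and 1 fall among 16 tested, beside 2.91% and 3.43% of all genes, and 2 rises and 0 falls among 15 without the mixed barcodes. The rises were Sdc4, described above, and Megf10, an engulfment receptor of satellite cells, at 3.99 and 2.81 CPM against 27.1 and 19.0 (ratio 7.02, counting interval 1.90 to 58.7, from 1 UMI in each total muscle library). The fall was Itga6, the laminin receptor subunit alpha 6, at 7.98 and 33.7 CPM against 0.405 and 1.27, with 6 near-identical copies. Both Megf10 and Itga6 were called at levels where total muscle held few UMIs, and neither was tested or called without homeostatic MuSC 1 or 2. Cd34, a sialomucin of quiescent satellite cells, was at 95.8 and 50.6 CPM against 88.3 and 56.6 and did not separate the groups (edgeR adjusted p = 0.963).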

How the data were processed

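Droplet 3' single-cell RNA libraries were used, 4 of the 7 in the series. The deposited values are raw UMI counts for 27998 genes, whole and without scaling, per the file headers. Per the submitters' processing notes, mm10, Seurat 2.3.4, Cell Ranger 2.2.0 and bcl2fastq 2.17.1 were used, in roles not given in the sources used here. Groups came from the labels, and replicate numbers are names only.

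UMIs of members were summed per library and tested in edgeR 4.0.16 (R 4.3.3; filterByExpr, TMM scaling, quasi-likelihood test, Benjamini-Hochberg adjustment over 7425 genes), with 4 libraries and no covariate; calls need an adjusted p under 0.05. CPM of single genes are TMM-scaled. SE is the absolute log2 difference divided by the square root of F. The biological coefficient of variation was 13.2%. The test was checked on simulated data.

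Named genes were the tested myogenic factors, the 10 largest rises and falls among called genes of at least 50 CPM whose groups did not overlap (predicted genes, rule genes and other cell types' markers left out), up to 4 called members of each list at 30 CPM or more or else its 2 most abundant, and the genes of the rule and the sort; others are said to be chosen after their values were seen. The members and the lists were chosen with earlier results of these data known. Of 22 gene lists and 14 marker lists, 618 of 626 genes were matched and the rest were not analysed here; 3 further lists were added after seeing the data.

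A near-identical copy shares at least 90 bases at 95% identity with the final 300 bases of the gene's transcripts (GENCODE M21, which may not be the release behind the counts; 4708 of 27604 genes searched have one). Free RNA was taken off as the profile of cells outside the members, scaled to 43 blood and endothelial markers: 4.79% and 8.54% of member UMIs for total muscle, against 2.98% and 4.05%. In the sorted libraries those cells carried transcripts of the members, so the profile taken off there was not free RNA alone. In homeostatic MuSC 1 erythroid genes gave 740 of the 831 marker UMIs of the members. The setting is therefore not alike between the groups. Promoters matched 73 of 110 named genes by symbol. No doublets were removed, except as an alternative that leaves out the highest Scrublet scores (scanpy 1.11.5) at 0.8% per 1000 cells. The other alternatives were DESeq2 1.42.0, other scalings, filters, cell rules and depths, and each library left out; leaving out mixed barcodes and X and Y genes was chosen after seeing the data. Some genes are not reported here.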

Additional observations from a re-analysis of the deposited data

How the results depend on the processing

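The rises (216) numbered 125 under DESeq2, 437 with all 7 libraries in 1 fit, 82 at 1000 UMIs per cell and 89 with equal numbers of cells; the falls (255) numbered 119 at 1000 UMIs, 103 with equal numbers of cells and 141 with copied genes left out. The settings at 1000 UMIs, with equal cells and without copied genes tested fewer genes (4488, 3434 and 6188 against 7425). Leaving out 1 library in turn gave 91 to 303 rises and 98 to 299 falls. Of the other alternatives run, including upper-quartile scaling, no TMM scaling, other filters and the free RNA and mixed-barcode settings, each kept both counts within 1.5 times. The difference of Sparc reversed to -0.28 without the condition on the 4 excluded genes; the cause was not tested. Of 82 named genes called, 74 were called under DESeq2, 78 without the mixed barcodes, 69 with free RNA taken off, 49 at 1000 UMIs and 43 with equal cells. With no filter on low counts the median log2 difference of all genes was 0.25, against 0.03. The difference in the share of members ran from 53.3 to 53.9 percentage points without each library and from 37.2 to 65.4 under other cell rules. With the replicate number as a block, 203 genes rose and 240 fell and 79 of the 82 named genes were called; libraries with the same number did not deviate together (Pearson r = 0.006, Spearman rho = 0.064 across 2547 genes, which are not independent), so the numbers pair nothing. When cells were drawn to equal numbers, the homeostatic sums were already below those of total muscle, so that UMIs were not drawn down further. The counts of calls fell most without a homeostatic library, to 91 and 108 rises, and were 303 and 237 without a total muscle library.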

Other observations

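Cells that fell short of the myogenic threshold in the sorted libraries carried transcripts of the members. In homeostatic MuSC 1 and 2, 13.6% and 15.9% of filtered cells had 0 UMIs of the 6 myogenic genes, against 92.6% and 91.1% in total muscle. Those cells held Meg3 at 5683 and 7204 CPM, Sdc4 at 2772 and 3628, Gal at 2066 and 3055 and Vcam1 at 1213 and 1082 in the sorted libraries. In total muscle the same class of cells held Meg3 at 544 and 565 CPM, Sdc4 at 416 and 380, Gal at 8.07 and 4.00 and Vcam1 at 123 and 129. Mitochondrially encoded genes held a median of 2.28% and 4.12% of the UMIs of these cells in the sorted libraries and 0.686% and 0.665% in total muscle.

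Haemoglobin and other erythroid genes differed between the sorted libraries, with 19989 CPM in the cells without myogenic UMIs of homeostatic MuSC 1 and 78.6 in those of homeostatic MuSC 2, and 299.6 and 80.8 CPM in the members. Sox11, a transcription factor gene of neural and progenitor cells that no list held, was at 35.9 and 22.5 CPM in total muscle members and 159 and 131 in homeostatic members (2.36 ± 0.31, edgeR adjusted p = 0.000651). Ampd3, an AMP deaminase, was at 19.95 and 28.1 CPM against 105 and 162 (2.43 ± 0.38, edgeR adjusted p = 0.00188). Slco2a1, a prostaglandin transporter, was at 156 and 177 CPM against 52.3 and 54.5 (-1.65 ± 0.21, edgeR adjusted p = 0.000595). All 3 genes were chosen after their values were seen.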
